A study of Arabidopsis thaliana with 24 samples.

Results

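The plastid enzymes that make fatty acids are represented here by 4 genes, which were followed through silique and seed development of Arabidopsis thaliana. AT5G10160 and AT2G22230 encode hydroxyacyl-ACP dehydratases, AT1G24360 encodes ketoacyl-ACP reductase, and AT2G34590 encodes the E1 beta subunit of the plastid pyruvate dehydrogenase complex. They were chosen by gene name, with earlier results of these data known, among genes that have a probe set of their own in the probe-to-gene annotation. Each of the 4 had 1 such probe set, out of 13286 genes with a probe set of their own and a locus. All 4 probe sets passed the filter on low signals, and on every one of the 24 arrays each exceeded the array's 40th percentile.

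Fatty acids of plant cells are built in the plastid. The plastid pyruvate dehydrogenase complex makes acetyl-CoA, acetyl-CoA carboxylase turns part of it into malonyl-CoA, and the fatty acid synthase cycle then lengthens a chain held on acyl carrier protein by condensation, ketoacyl reduction, dehydration and enoyl reduction. Both dehydratases and the ketoacyl reductase therefore belong to the cycle itself, whereas the E1 beta subunit acts upstream of it. In Arabidopsis seeds, the products of this pathway go largely into the storage oil that the embryo lays down during maturation.

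Samples of the accession Col-0 were measured on Affymetrix ATH1 arrays, 1 array per sample and 3 per group, 24 in all. Siliques, the pods, were taken whole with their seeds at stages 3, 4 and 5, and seeds were taken out of the silique at stages 6, 7, 8, 9 and 10. No mutant, transgene or treatment appears in the labels, and growth conditions (long days, soil) are labelled for stage 3 alone. The labels give neither days nor separate plants. A p-value here rests on the spread among the 3 arrays of a group, pooled over the 8 groups and moderated over probe sets. That spread may be technical only. Values are MAS5 signals on a linear scale that the authors had scaled to a common mean per array. A level therefore stands relative to the rest of its array, fewer cells of a type and less RNA per cell cannot be told apart, and no level of one gene is set against that of another.

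The labelled material was checked against marker genes. Summed signals of 3 silique wall markers lay between 1695 and 2088 on arrays of siliques and between 40.6 and 85.1 on arrays of seeds. Those of 4 embryo storage markers were 13.3 to 25.7 at stage 3 and 30833 to 35267 at stage 10. The 2 green tissue markers summed to 3587 to 4599 over the siliques, 1332 to 1416 at stage 6 and 107 to 122 at stage 10. Pollen markers summed to 1649 to 1672 at stage 3 and to at most 252 elsewhere. The 2 seed coat markers summed to 1216 to 2003 over the siliques and to 20.9 to 50.4 at stage 10, and no marker value was at 0.

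Taken over the whole series, the 4 genes shared 1 course. Their signal went up between siliques stages 3 and 5, was highest in siliques stage 5 or seeds stage 6, and then went down to its lowest level in seeds stage 10. The highest group mean exceeded the lowest 15.2-fold for AT5G10160, 13.3-fold for AT2G22230, 9.82-fold for AT1G24360 and 10.5-fold for AT2G34590. The moderated F test of limma over the 8 groups gave adjusted p-values of 6.3e-23, 1.5e-23, 2.6e-22 and 1.2e-21 in the same order. That test passed for 94.9% of all 16967 probe sets tested, so passing it sets the genes apart from few others.

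**Figure D1:**
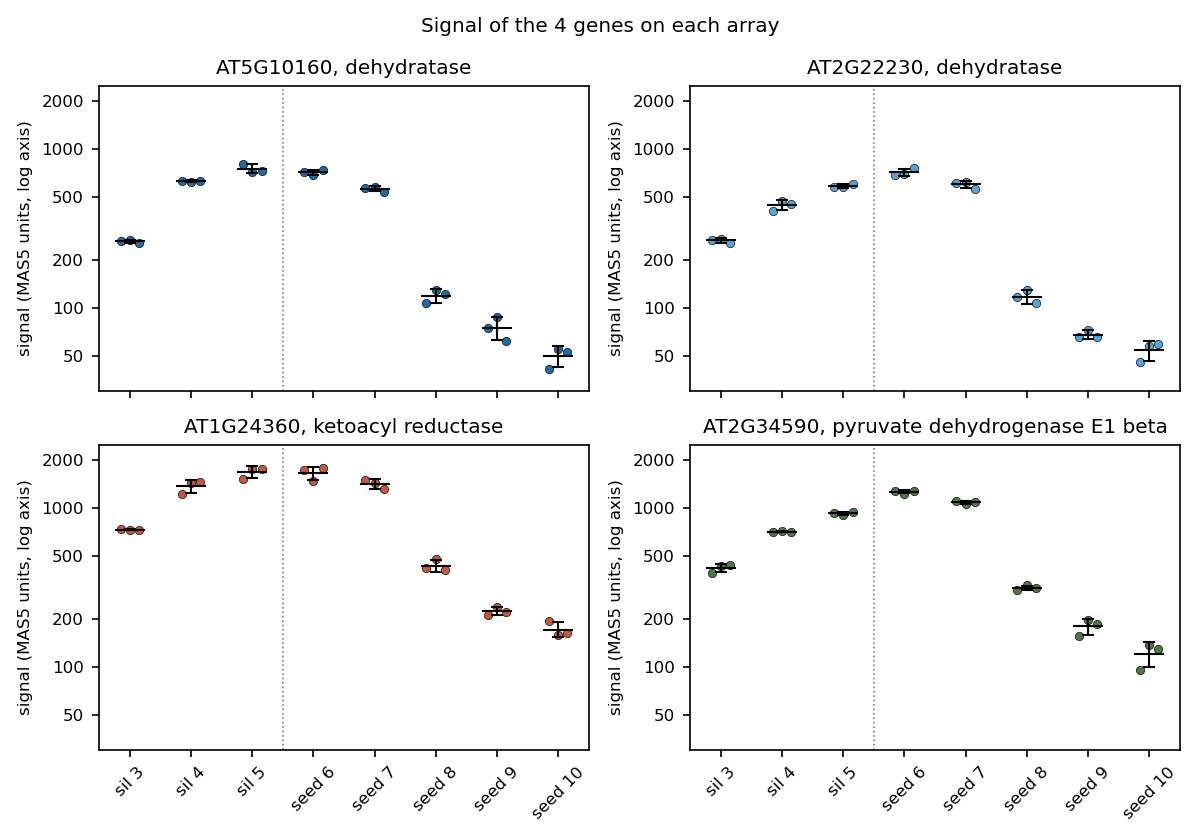
Signal of each gene on each of the 24 arrays (points, log axis, MAS5 units) by group, with the group mean (horizontal bar) and SD (error bar, n = 3). The dotted line divides whole siliques from isolated seeds. All 4 genes are highest in siliques stage 5 or seeds stage 6 and lowest in seeds stage 10, and levels are to be compared within a panel only.

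AT5G10160, one of the dehydratases, gave signals of 263, 268 and 257 in siliques stage 3, 634, 620 and 632 in stage 4, and 808, 721 and 731 in stage 5. Its seed signals were 716, 683 and 743 at stage 6 and 571, 579 and 539 at stage 7. They were 107, 130 and 122 at stage 8, 75, 87 and 62.1 at stage 9, and 41.3, 55.4 and 52.3 at stage 10. The siliques stage 3 arrays lay below those of every group from siliques stage 4 to seeds stage 7 and above those of every later group. By mean, siliques stage 5 (753 ± 47.5, SD, n = 3) came first and seeds stage 6 (714 ± 30) second, and their arrays overlapped (limma, adjusted p = 0.55). Neither seeds stage 6 against siliques stage 4, next in order, nor siliques stage 4 against seeds stage 7 passed the adjusted p (0.12 and 0.16), although their arrays did not overlap.

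AT2G22230, the other dehydratase, gave signals of 269, 273 and 255 in siliques stage 3, 408, 468 and 454 in stage 4, and 576, 577 and 603 in stage 5. In the seeds it gave 688, 701 and 760 at stage 6 and 616, 621 and 563 at stage 7. The later seeds gave 117, 130 and 107 at stage 8, 65.1, 72.7 and 65.3 at stage 9, and 45.4, 57.4 and 59.0 at stage 10. Seeds stage 6 stood highest, with all 3 arrays above those of every other group, at 716 ± 38.7 (SD, n = 3). Seeds stage 7 (600 ± 32.0) and siliques stage 5 (585 ± 15.3) overlapped and did not pass the test (adjusted p = 0.75). The other 6 neighbours in its order of levels passed the adjusted p and did not overlap.

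AT1G24360, the ketoacyl reductase, gave signals of 744, 732 and 725 in siliques stage 3, 1225, 1433 and 1472 in stage 4, and 1524, 1773 and 1772 in stage 5. Its signals were 1731, 1494 and 1781 in seeds stage 6 and 1510, 1447 and 1314 in seeds stage 7. At stages 8, 9 and 10 they were 418, 476 and 406, then 213, 238 and 221, then 193, 159 and 164. The 4 highest groups were siliques stage 5 (1689 ± 143, SD, n = 3), seeds stage 6 (1669 ± 154), seeds stage 7 (1423 ± 100) and siliques stage 4 (1377 ± 133). Each overlapped the next, with adjusted p-values (limma) of 0.89, 0.065 and 0.64. Groups further apart in this order passed the adjusted p and did not overlap. It was 0.022 for siliques stage 5 against seeds stage 7 and 0.021 for siliques stage 5 against 4. For seeds stage 6 against siliques stage 4 it was 0.010. Siliques stage 3 and seeds stages 8, 9 and 10 followed in that order, each separate from the next.

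AT2G34590, the pyruvate dehydrogenase subunit, gave signals of 393, 432 and 441 in siliques stage 3, 710, 718 and 706 in stage 4, and 937, 904 and 947 in stage 5. It reached 1283, 1238 and 1290 in seeds stage 6 and gave 1104, 1068 and 1094 at stage 7. Lower values of 306, 327 and 314 followed at stage 8, 157, 196 and 187 at stage 9, and 96.3, 137 and 131 at stage 10. No 2 groups next to each other in its order of levels overlapped, from 1270 ± 28.4 (SD, n = 3) in seeds stage 6 down to 121 ± 21.7 in seeds stage 10. Of these 7 steps, only the first, from seeds stage 6 to stage 7 (1089 ± 18.8), missed the adjusted p, at 0.074.

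Changes between groups were tested with limma on log2(signal + 6.97), where the offset tempers the noise of low signals and understates the change of low genes. A call needed a change of at least 2-fold and an adjusted p (Benjamini-Hochberg) under 0.05, and "rose" and "fell" are used of called genes only. From siliques stage 3 to 5 all 4 genes rose, and all arrays of stage 5 lay above those of stage 3. The dehydratase AT5G10160 changed by 1.49 ± 0.10 (log2, SE), AT2G22230 by 1.12 ± 0.08, the reductase AT1G24360 by 1.19 ± 0.09 and the E1 beta gene AT2G34590 by 1.13 ± 0.09. The mean signals, without the offset, differed 2.87-, 2.20-, 2.30- and 2.20-fold. The adjusted p-values of the log2 changes were 1.0e-12, 2.4e-11, 1.7e-11 and 5.3e-11. Of all tested probe sets 10.4% were called higher in this comparison, 34.3% had all stage 5 arrays above all stage 3 arrays, and the median change was -0.03. The pollen markers went the other way in it, from 1649 to 1672 down to 235 to 252, and the embryo storage markers went from 13.3 to 25.7 up to 6666 to 6986. The 3'/5' signal ratios of control probe sets, which go up when RNA is broken or labelled short, also differed for actin and ubiquitin. They were 3.78 to 4.36 in stage 3 and 2.44 to 2.81 in stage 5 for actin, and 1.78 to 1.98 and 1.47 to 1.59 for ubiquitin. Those of GAPDH overlapped, at 1.324 to 1.405 in stage 3 and 1.383 to 1.496 in stage 5. The part of these values in the result was not tested.

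Most of that rise came early. The step from siliques stage 3 to 4 made up 82.9% of the log2 rise of AT5G10160, 64.5% for AT2G22230, 75.3% for AT1G24360 and 66.1% for AT2G34590. Only AT5G10160 was called at this step, at 1.24 ± 0.10 (log2, SE; adjusted p = 4.8e-11), against 9.40% of all tested probe sets called higher. The reductase, at 0.90 ± 0.09, passed the adjusted p (3.8e-09) but missed the 2-fold minimum, and after quantile normalization it stood at 1.15 and was called. AT2G22230 at 0.72 ± 0.08 and AT2G34590 at 0.74 ± 0.09 passed the adjusted p alone, which 28% of probe sets did as higher. The 3'/5' ratios at stages 3 and 4 were 3.78 to 4.36 and 2.44 to 2.89 for actin and 1.78 to 1.98 and 1.23 to 1.30 for ubiquitin. For GAPDH they were 1.324 to 1.405 and 1.433 to 1.452. The pollen markers went from 1649 to 1672 down to 226 to 248, and the embryo storage markers from 13.3 to 25.7 up to 2090.5 to 2270. The part of these values in the step was not tested. At the step from stage 4 to 5 none of the 4 was called, with changes of 0.26 to 0.40, where 1.89% of probe sets were called higher. AT2G22230 (adjusted p = 0.0013), AT1G24360 (0.021) and AT2G34590 (0.0029) passed the adjusted p alone, as 1591 of 16967 probe sets did as higher. AT1G24360 lost it in 5 of 15 alternatives, with values up to 0.14. AT5G10160 missed it (0.070) but passed in 4 of 15 alternatives.

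Seeds stage 6 against siliques stage 5 compares different material as well as different stages, and none of the 4 genes was called in it. AT2G34590 was higher in the seeds by 0.45 ± 0.09 (log2, SE; adjusted p = 0.00018) and AT2G22230 by 0.29 ± 0.08 (adjusted p = 0.0072). The 3 seed arrays of both genes lay above the silique arrays, yet both changes are under 2-fold. Of all probe sets 24.5% passed the adjusted p as higher and 34.1% had all seed arrays above the silique arrays. AT5G10160 stood at -0.08 ± 0.10 (adjusted p = 0.55) and AT1G24360 at -0.02 ± 0.09 (adjusted p = 0.89), with arrays that overlapped. After quantile normalization AT1G24360 stood at -0.26 (adjusted p = 0.029). Of the probe sets tested, 4.07% were called higher and 7.56% lower. The silique wall markers differed between the groups, summing to 1746 to 1925 at stage 5 and 54.3 to 71.3 at stage 6, and so did the green tissue markers, at 3587 to 4147 and 1332 to 1416. The embryo storage markers went from 6666 to 6986 up to 15572 to 16325, the late embryogenesis markers from 99.1 to 111 up to 563 to 626, the pollen markers from 235 to 252 down to 48.9 to 68.8 and the seed coat markers from 1216 to 1259 down to 852 to 874. These are sums, and not every marker was called. All 3 silique wall, 1 of 2 green tissue and 1 of 2 pollen markers were called lower. Of the 4 embryo storage markers 3, and of the 3 late embryogenesis markers 1, were called higher. Neither seed coat marker was called. The part of these markers in the values was not tested.

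From seeds stage 6 to 10 all 4 genes fell. AT5G10160 changed by -3.68 ± 0.10 (log2, SE), 14.4-fold, and AT2G22230 by -3.58 ± 0.08, 13.3-fold. AT1G24360 changed by -3.23 ± 0.09, 9.70-fold, and AT2G34590 by -3.33 ± 0.09, 10.5-fold. These folds are ratios of mean signals without the offset. The adjusted p-values were 4.7e-21, 6.4e-22, 1.2e-20 and 7.3e-21, and no array of seeds stage 10 reached the range of stage 6. In this comparison 19.7% of probe sets were called lower, 36.9% had all stage 10 arrays below all stage 6 arrays, and the median change was 0.02. The shares of tested probe sets that changed more negatively than each of the 4 genes were 1.15%, 1.31%, 1.93% and 1.74% in the same order. With each array centred on its 75th percentile the median of all probe sets moved to 0.13, and the 4 genes stood at -3.57, -3.47, -3.12 and -3.22.

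The step from seeds stage 7 to 8 held more than any other of this fall. Over it AT5G10160 changed by -2.18 ± 0.10 (log2, SE), 4.71-fold, and AT2G22230 by -2.29 ± 0.08, 5.09-fold. AT1G24360 changed by -1.70 ± 0.09, 3.28-fold, and AT2G34590 by -1.76 ± 0.09, 3.45-fold. These folds are again ratios of mean signals without the offset. The log2 changes are 59.1%, 63.9%, 52.7% and 53.0% of those between stages 6 and 10. The adjusted p-values ran from 2.9e-17 to 2.0e-14, with 11.2% of probe sets called lower and 33.6% with all later arrays below all earlier ones. With arrays centred on 10 reference genes the median of all probe sets at this step moved from -0.02 to 0.13 and the split of calls from 1367 higher and 1908 lower to 1781 and 1455, while the 4 genes stayed called lower at -2.03, -2.14, -1.55 and -1.62.

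None of the 4 genes was called at the other seed steps. From stage 6 to 7 they stood at -0.22 to -0.34, where 1.07% of probe sets were called lower. AT5G10160 (adjusted p = 0.010) and AT2G22230 (0.030) passed the adjusted p, as 12.9% of probe sets did as lower. AT1G24360 (0.065) and AT2G34590 (0.074) did not, but passed it with the offset 4 times larger (0.048 and 0.041) or with only these groups fitted (0.041 and 0.0040), and AT1G24360 also without stage 6 replicate B, at -0.30 (0.024). From stage 8 to 9 all 4 passed it, at -0.64 for AT5G10160, -0.74 for AT2G22230, -0.93 for AT1G24360 and -0.79 for AT2G34590, where 2.61% were called lower and 16.3% passed the adjusted p as lower. They passed it again from stage 9 to 10, at -0.53, -0.30, -0.37 and -0.56, where 0.937% were called lower and 9.93% passed it as lower. With arrays centred on the reference genes the split of all calls at this last step moved from 132 higher and 159 lower to 94 and 230. The AT2G22230 value of the last step stood at -0.19 (adjusted p = 0.10) without seeds stage 10 replicate A and at -0.25 (0.068) without seeds stage 9 replicate B. Its value from stage 6 to 7 missed the threshold without stage 6 replicate B or C or stage 7 replicate A or C, with values of -0.27, -0.21, -0.27 and -0.21, and also with arrays centred on the 75th percentile or with no variance trend, at adjusted p-values of 0.053. With only the groups of stages 9 and 10 fitted, AT5G10160 (0.089) and AT2G22230 (0.30) missed it at the last step.

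**Figure D2:**
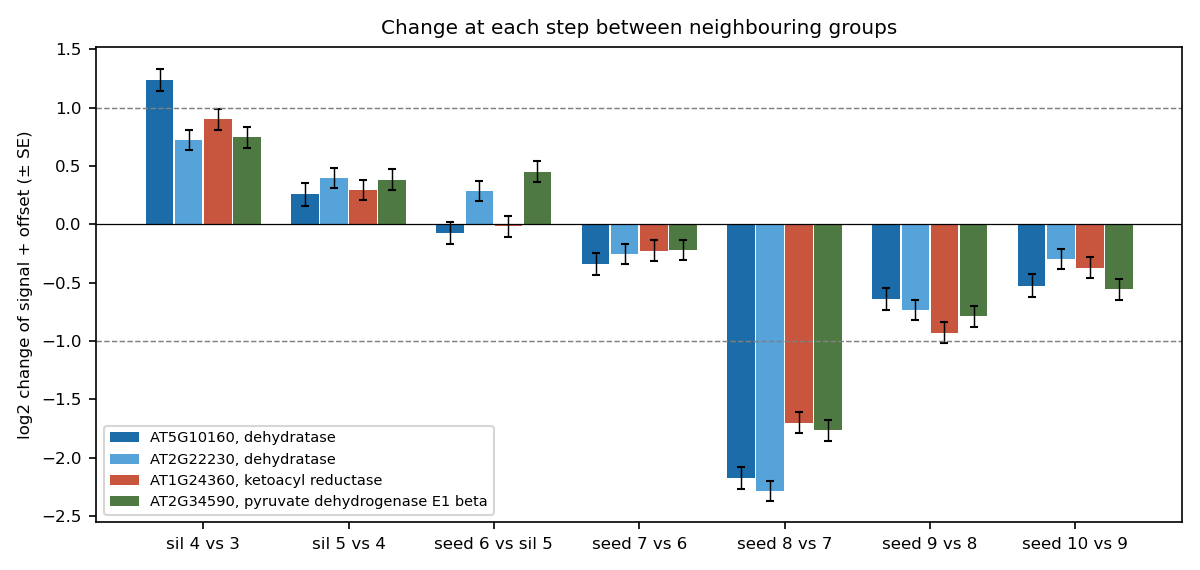
Log2 change of signal plus offset (bars, SE as error bars) for each gene at each of the 7 steps between neighbouring groups, with the 2-fold limits dashed. The step from seeds stage 7 to 8 has the longest bars, from -1.70 to -2.29, and the step from siliques stage 3 to 4 the tallest ones above 0.

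Marker sums and quality values moved with the late stages and are given beside these falls. Between seeds stages 6 and 10 the green tissue markers went from 1332 to 1416 down to 107 to 122, the seed coat markers from 852 to 874 down to 20.9 to 50.4, and the embryo storage markers from 15572 to 16325 up to 30833 to 35267. The late embryogenesis markers went from 563 to 626 up to 17047 to 19061 between these stages, and from 1462 to 1531 up to 11732 to 12321 between stages 7 and 8. From stage 7 to 8 the green tissue markers went from 909 to 945 down to 215 to 269. The seed coat markers went from 430 to 490 down to 195 to 252, and both genes of each set were called lower. The embryo storage markers went from 16771 to 18897 up to 27437 to 31665, and the pollen markers from 51.9 to 63.2 up to 159 to 206. The sum of the pollen markers went from 48.9 to 68.8 at stage 6 up to 171 to 217 at stage 10, and 1 of the 2 genes was called higher. Of the 4 embryo storage markers 3 were called higher between stages 6 and 10. The 3'/5' ratio of ubiquitin was 1.60 to 2.03 at stage 6 and 2.06 to 2.28 at stage 10, without overlap. It was 1.49 to 1.74 at stage 7 and 1.95 to 2.52 at stage 8, again without overlap. That of actin was 2.79 to 3.13 at stage 6 and 2.02 to 2.30 at stage 10, also without overlap. Between stages 7 and 8 it overlapped, at 2.39 to 2.88 and 2.51 to 3.10. The GAPDH ratio overlapped in both comparisons, and was 1.33 to 1.55 in seeds stages 6 and 7 and 1.24 to 1.81 in the later seeds. The 25S rRNA control signal ranged from 55.3 to 2074 in seeds stages 6 and 7 and from 109 to 4717 in the later seeds. The 10 brightest probe sets held 1.62% to 1.90% of the summed signal in seeds stages 6 and 7 and 2.65% to 3.91% afterwards. The part of these values in the falls was not tested.

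**Figure D3:**
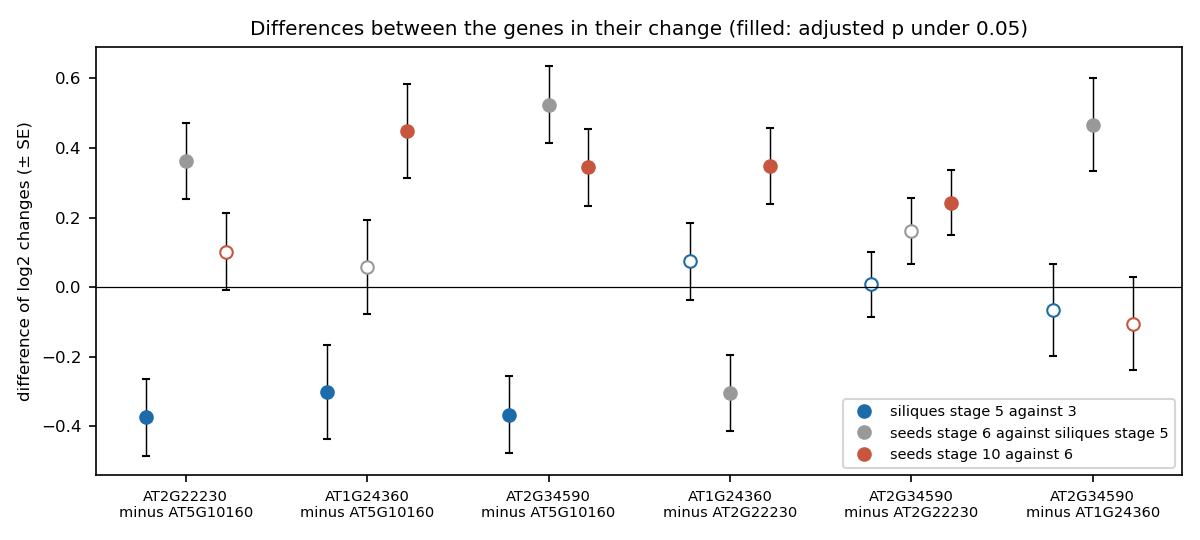
Difference between 2 genes in their log2 change (points, SE as error bars) for the 6 gene pairs in the 3 main comparisons, filled where the adjusted p is under 0.05. The 3 pairs with AT5G10160 lie below 0 for siliques stage 5 against 3, and the 4 pairs of a dehydratase with the reductase or the E1 beta gene lie above 0 for seeds stage 10 against 6.

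Whether 2 of the genes changed by unequal amounts was tested by fitting the log2 values of all probe sets minus that of 1 gene on the same array, for 6 pairs in the 3 main comparisons. In siliques stage 5 against 3 and seeds stage 10 against 6 the gene subtracted had itself changed. Most probe sets therefore differ from it, and the adjustment alters the p-values little. For AT1G24360 minus AT5G10160 the limma p-value went from 0.0335 to 0.0354 and from 0.00230 to 0.00234. Passing is thus common among all probe sets in these fits, and the share that passed was not counted. No difference reached 2-fold. From siliques stage 3 to 5 AT5G10160 changed more than the others: relative to it AT2G22230 stood at -0.37 ± 0.11 (log2, SE; adjusted p = 0.0021), AT2G34590 at -0.37 ± 0.11 (0.0026) and AT1G24360 at -0.30 ± 0.14 (0.035). The last of these stood at -0.094 after quantile normalization (adjusted p = 0.50), and without siliques stage 5 replicate D at -0.18 (0.24). It also lost the threshold without each stage 3 replicate, at adjusted p-values of 0.052 to 0.072, and with no variance trend, at 0.061. The other 3 pairs stood between -0.07 and 0.07 with adjusted p-values of 0.52 to 0.94. After quantile normalization, however, the change of AT1G24360 exceeded that of AT2G22230 by 0.32 (0.0059).

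In seeds stage 6 against siliques stage 5, the log2 change of AT2G34590 exceeded that of AT5G10160 by 0.52 ± 0.11 (SE; adjusted p = 0.00031). It exceeded that of AT1G24360 by 0.47 ± 0.13 (0.0060). The dehydratases differed from each other in their change here, that of AT2G22230 exceeding that of AT5G10160 by 0.36 ± 0.11 (adjusted p = 0.0096). That difference stood at 0.30 (adjusted p = 0.063) without siliques stage 5 replicate D. The change of AT2G22230 also exceeded that of AT1G24360, with the reductase at -0.31 ± 0.11 relative to it (adjusted p = 0.025). This last difference missed the threshold without siliques stage 5 replicate E or F or seeds stage 6 replicate B or C, at -0.24 to -0.31. The share of all probe sets that passed in these fits was again not counted. For AT2G22230 minus AT5G10160 the limma p-value went from 0.00257 to 0.00955 on adjustment, so passing was not rare.

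From seeds stage 6 to 10 both dehydratases changed more than the other 2 genes. Relative to AT5G10160, AT1G24360 stood at 0.45 ± 0.14 (log2, SE; adjusted p = 0.0023) and AT2G34590 at 0.34 ± 0.11 (0.0040). Relative to AT2G22230 they stood at 0.35 ± 0.11 (0.0037) and 0.24 ± 0.09 (0.015). The difference between the dehydratases (0.10 ± 0.11, adjusted p = 0.37) and that between the E1 beta gene and the reductase (-0.11 ± 0.13, 0.44) did not pass the test. All 4 differences that passed depended on the offset: at 4 times its size they stood at 0.18, 0.13, 0.10 and 0.05, with adjusted p-values of 0.14, 0.21, 0.30 and 0.55.

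Single arrays touched these small differences, among them seeds stage 10 replicate A. On that array AT5G10160, AT2G22230 and AT2G34590 gave their lowest signals of the series, at 83.2%, 84.2% and 79.5% of their group means, while AT1G24360 gave the highest of its group, at 112%. Without it, AT1G24360 relative to AT2G22230 stood at 0.16 (adjusted p = 0.072), AT1G24360 relative to AT5G10160 at 0.26 (0.049), and AT2G34590 relative to AT1G24360 turned from -0.11 to 0.13. AT2G34590 relative to AT2G22230 missed the threshold without seeds stage 6 replicate C (0.21) or seeds stage 10 replicate B (0.20), and with only the groups of stages 6 and 10 fitted (adjusted p = 0.073). The falls themselves held without replicate A of stage 10, at -3.57 for AT5G10160, -3.47 for AT2G22230, -3.31 for AT1G24360 and -3.18 for AT2G34590, all 4 called.

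The 8 group means of log2 values of any 2 of the 4 genes correlated at 0.975 to 0.996, which describes the shared course over groups. Within groups the genes did not all move together. Over the 24 arrays the deviations from the group mean correlated at 0.61 between both dehydratases, 0.55 between AT5G10160 and AT2G34590 and 0.63 between AT2G22230 and AT2G34590. Those of AT1G24360 correlated at -0.06 with AT5G10160, 0.26 with AT2G22230 and -0.19 with AT2G34590. In seeds stage 10 AT1G24360 deviated opposite to the other genes on every array. On replicate A it stood at 0.17 (log2), with AT5G10160 at -0.22, AT2G22230 at -0.21 and AT2G34590 at -0.30. How far the low correlations of AT1G24360 rest on this group was not tested. Genes of 1 array share its RNA, labelling and scaling.

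Other genes of the plastid pathway were taken from 7 lists, which were also chosen with earlier results known and hold 40 genes beside the 4. Of these 12 had a tested probe set of their own. Acyl carrier proteins, one of the 7 lists, and a further list of carbon supply to the plastid were not analysed here. From siliques stage 3 to 5, 7 of the 12 rose and none fell, with a median change of 1.49. From seeds stage 6 to 10, 8 of the 12 fell and none rose, with a median of -3.16, and the same numbers fell and rose from seeds stage 7 to 8, with a median of -1.59. The medians of all tested probe sets were -0.03, 0.02 and -0.02 in these comparisons, and 10.4%, 19.7% and 11.2% were called in the direction concerned.

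Of the plastid pyruvate dehydrogenase complex, AT4G16155, a gene of its E3 subunit, was likewise highest in seeds stage 6. Its mean signal went from 181 ± 13.2 (SD, n = 3) at stage 3 to 363 ± 19.4 at stage 6 and 31.4 ± 23.5 at stage 10. It fell by 3.50 ± 0.27 (log2, SE; adjusted p = 1.6e-11) from seeds stage 6 to 10, while its change from siliques stage 3 to 5, 0.83 ± 0.27, was not called. The acetyl-CoA carboxylase list was represented by 3 genes of BADC proteins, which bind the carboxylase in place of its biotin-carrying subunit and lower its activity. All 3 fell from seeds stage 6 to 10, with changes of -1.92 ± 0.11 for AT3G56130, -4.59 ± 0.35 for AT1G52670 and -4.11 ± 0.23 for AT3G15690. The arrays of seeds stage 10 have their 40th percentile at signals of 21.7 to 24.1, and there AT3G15690 lay below it at 7.20 to 17.1, while AT1G52670 had signals of 1.97, 29.3 and 53.4 and AT4G16155 had 1 array at 7.11. The sizes of these 3 falls therefore depend on the offset, and those of AT1G52670 and AT4G16155 also on single arrays, ranging over the alternatives from -5.46 to -3.69 for AT1G52670, -4.82 to -3.08 for AT3G15690 and -3.96 to -2.80 for AT4G16155. From siliques stage 3 to 5 AT1G52670 rose by 1.77 ± 0.35 and AT3G15690 by 1.46 ± 0.23, and AT3G56130 stood at 0.23 ± 0.11.

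Downstream of the cycle, stearoyl-ACP desaturases put the first double bond into the finished chain. AT5G16240 fell by 3.52 ± 0.13 (log2, SE) and AT3G02630 fell by 4.21 ± 0.12 from seeds stage 6 to 10, after rising by 1.88 ± 0.13 and 2.24 ± 0.12 from siliques stage 3 to 5. Their relative AT5G16230 rose in the siliques but was not called in the seeds, at -0.36 ± 0.15 (adjusted p = 0.033). Its signal was 1.29 ± 1.41 (SD, n = 3) at stage 3, below the arrays' 40th percentile of 24.4 to 25.8, so the size of its rise depends on the offset and ranged from 2.03 to 6.72 (log2) over the alternatives. It was highest at 227 ± 0.10 at stage 7, and was still 132 ± 24.1 at stage 10. Among the thioesterases, which release the chain from its carrier, FaTA fell by 2.82 ± 0.13 and its relative AT4G13050 fell by 3.86 ± 0.24, whereas FATB stood at -0.22 ± 0.09. The stage 10 signals of AT4G13050, 6.34 to 16.2, lay below the 40th percentile, and its change ranged from -4.52 to -2.89 over the alternatives. AT3G57280, which encodes FAX1, an exporter of fatty acids from the plastid, stood at -0.43 ± 0.07, and AT4G31050, a gene of lipoate attachment, at 0.02 ± 0.22 with signals of 8.36 to 31.4 on all arrays.

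**Figure D4:**
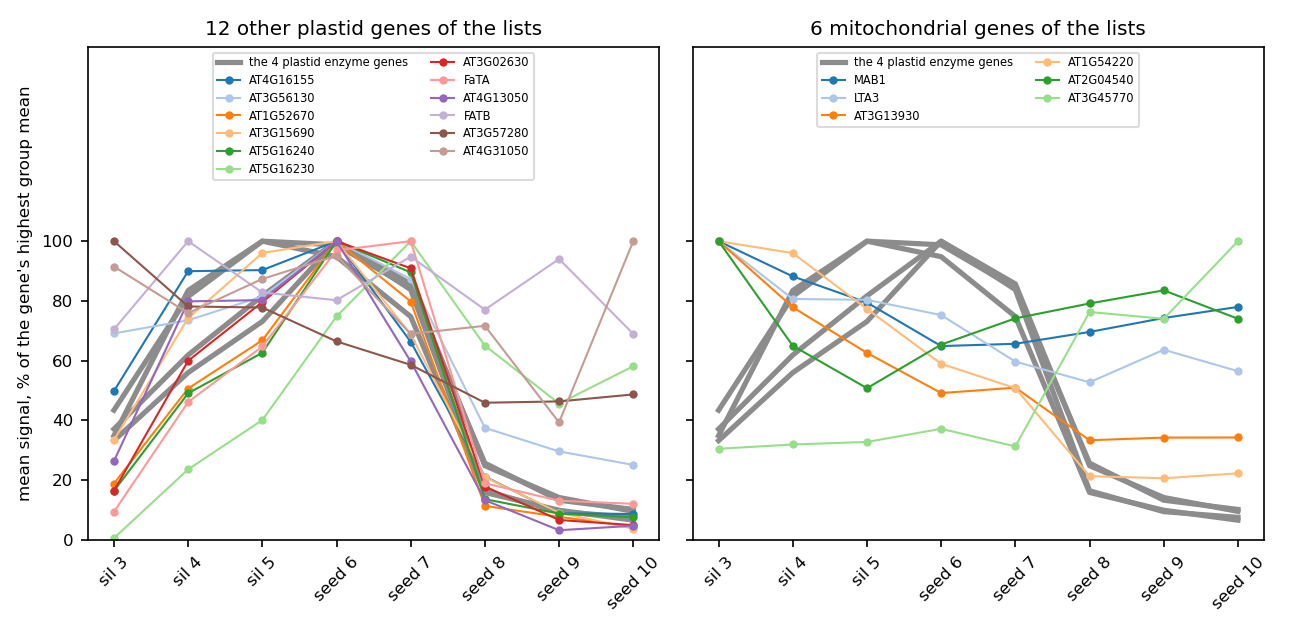
Mean signal of each group as a percent of the gene's highest group mean, for 12 other plastid genes of the lists (left) and 6 mitochondrial genes (right), with the 4 plastid enzyme genes in grey in both panels. Of the plastid genes, 8 end at 3.77% to 25.1% of their highest mean in seeds stage 10 and the other 4 at 48.7% to 100%, and the mitochondrial genes end at 22.3% to 100%.

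Mitochondria have a pyruvate dehydrogenase complex and a small fatty acid synthase of their own, of which 6 genes were tested. MAB1, the mitochondrial E1 beta gene, had mean signals between 323 ± 13.5 (SD, n = 3) in seeds stage 6 and 497 ± 11.1 in siliques stage 3, and stood at 0.25 ± 0.08 (log2, SE) from seeds stage 6 to 10. Of the E2 subunit genes, AT1G54220 fell by 1.21 ± 0.12 in that comparison (by 0.84, and not called, with the offset 4 times larger), and LTA3 (-0.37 ± 0.11) and AT3G13930 (-0.50 ± 0.11) were not called. AT3G45770, the mitochondrial enoyl reductase, rose by 1.35 ± 0.11, with signals of 78.0 ± 5.68 at stage 6 and 210 ± 15.4 at stage 10. AT2G04540, the mitochondrial ketoacyl synthase, stood at 0.14 ± 0.17. The mitochondrial dehydratase AT5G60335 was not tested, with signals of 3.98 to 21.7. The difference between the plastid and mitochondrial genes was not itself tested.

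The genes whose course was most like that of each of the 4 were sought among the 9350 tested probe sets with 1 gene and a locus by the Pearson correlation of the 8 group means of log2 values. A correlation above 0.9 with the mean course of the 4 was common, held by 586 of these probe sets (6.27%). For AT5G10160 the closest were AT3G01810 (0.996), AT1G76550 (0.996), a gene of the alpha subunit of pyrophosphate-dependent phosphofructokinase, and AT1G24360 (0.996). AT2G22230 was closest to AT1G76550 (0.996), AT1G16860 (0.996) and AT4G10030 (0.995). The reductase AT1G24360 was closest to AT5G10160 (0.996), AT3G17940 (0.996) and the BADC gene AT3G15690 (0.995). AT2G34590 was closest to AT1G50110 (0.998), a branched-chain aminotransferase gene, AT1G23750 (0.998) and AT1G12230 (0.996).

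These ranks are close and in part depend on the scaling. After quantile normalization all 3 nearest genes of AT5G10160 were the same, 2 of 3 for AT2G34590, and 1 of 3 for AT2G22230 and for AT1G24360. Most opposed to the mean course were AGL65 (-0.987), AT4G20820 (-0.987) and AT5G54540 (-0.985). AT5G54540 had mean signals of 615 at stage 3, 448 at stage 6 and 1286 at stage 10.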

How the data were processed

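The deposited values are signal intensities of 24 ATH1 arrays, made by the authors with MAS5, as named in the submitters' processing notes (per the labels). Its version is not given in the sources here. They hold no detection calls. Groups follow the tissue label, and replicates the letters in the titles. The signals between the 2nd and 98th percentiles averaged 99.96 to 99.97 on every array.

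Of 22810 probe sets, 64 controls were left out and 16967, above the 40th percentile of their array on at least 3 arrays, were tested. The annotation gave 1 gene to 13513, several to 503 and none to 8794, and 13436 of the former matched a locus. The offset is each array's 20th percentile, as its median over the arrays. limma 3.58.1 in R 4.3.3 fitted 8 group means (lmFit, then eBayes with trend), leaving 16 residual degrees of freedom. Replicate letters shared between groups were not used as pairs in the main fit, as the labels do not say what they mean. Deviations of 45 same-letter pairs correlated at -0.054 to 0.102 and those of 207 other pairs at -0.113 to 0.147. With 3 arrays per group these values cannot show whether arrays of 1 letter share plants or a batch. Tables were made with pandas 2.3.3 and figures with matplotlib 3.10.9.

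The members and the 22 gene lists were chosen with earlier results of these data known. Named were the 4 genes, every tested gene of a list of at most 8 such genes, the 3 genes most like each of the 4 and the 3 most opposed to their mean. Alternatives changed the normalization (quantile, 75th percentile, reference genes), offset, filter, variance model, groups fitted, call rule, replicate block and each array in turn. The number of arrays limits the precision. A planned count of promoter motifs was not run.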

Additional observations from a re-analysis of the deposited data

How the results depend on the processing

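The calls of the 4 genes in siliques stage 5 against 3, seeds stage 8 against 7 and seeds stage 10 against 6 kept their direction and their side of the threshold under each alternative run for them. From seeds stage 6 to 10 the changes ranged from -3.86 to -3.26 for AT5G10160, -3.74 to -3.19 for AT2G22230, -3.31 to -3.08 for AT1G24360 and -3.42 to -3.13 for AT2G34590. With the replicate block, a term for the replicate letter, the 4 stood at -3.74, -3.66, -3.21 and -3.38, and no call of the 4 genes changed. With the block AT1G24360 and AT2G34590 passed the adjusted p in seeds stage 7 against 6 (0.048 and 0.049), under 2-fold. After quantile normalization AT1G24360 was called in siliques stage 4 against 3 at 1.15, which makes 2 genes called, and 27 of its 28 pairs of group means kept their order. The adjusted p with no minimum fold called 2 genes higher in seeds stage 6 against siliques stage 5 (0.29 and 0.45), 4 in siliques stage 4 against 3 (with 0.72, 0.90 and 0.74 added) and 3 in siliques stage 5 against 4 (0.40, 0.29 and 0.38). It called 2 lower in seeds stage 7 against 6 (-0.34 and -0.25), and 4 lower in stage 9 against 8 (-0.64, -0.74, -0.93 and -0.79) and in 10 against 9 (-0.53, -0.30, -0.37 and -0.56). In the fits of gene pairs for siliques stage 5 against 3 and seeds stage 10 against 6, passing is common among all probe sets. For seeds stage 6 against siliques stage 5 it is not rare, and the share that passed was not counted. By the adjusted p with no minimum fold 11 differences between 2 genes passed, at -0.37, -0.30 and -0.37 in siliques stage 5 against 3, 0.36, 0.52, -0.31 and 0.47 in seeds stage 6 against siliques stage 5, and 0.45, 0.34, 0.35 and 0.24 in seeds stage 10 against 6. The numbers of probe sets called by it were 10080, 7694 and 12134 in these 3 comparisons, against 3614, 1972 and 5735 with the 2-fold minimum, and 9374, 2946, 4151, 9839, 4754 and 3317 in the 6 further steps. With the offset 4 times larger 1200 probe sets were called in seeds stage 6 against siliques stage 5, and 2112, 312, 332, 2039, 232 and 92 in those steps. With no offset 1009 were called in seeds stage 9 against 8 and 614 in 10 against 9. Changes near 0 turned sign. Leaving out 1 array at a time moved AT1G24360 in seeds stage 6 against siliques stage 5 between -0.091 and 0.059. It moved AT2G34590 minus AT2G22230 in siliques stage 5 against 3 between -0.050 and 0.067, AT1G24360 minus AT5G10160 in seeds stage 6 against siliques stage 5 between -0.066 and 0.12, and AT2G34590 minus AT1G24360 in seeds stage 10 against 6 between -0.25 and 0.13. The first of these differences stood at -0.00018 with no offset and the second at -0.16 after quantile normalization. AT4G31050 turned to 0.027 after quantile normalization in siliques stage 5 against 3 and to -0.18 with the replicate block in seeds stage 10 against 6. AT3G01570 turned to -0.21 in seeds stage 10 against 6 and to -0.20 in 8 against 7 after quantile normalization. Without 1 array AT4G31050 lay between -0.17 and 0.079, between -0.13 and 0.30 and between -0.13 and 0.12 in siliques stage 5 against 3, seeds stage 10 against 6 and seeds stage 8 against 7, and AT2G04540 between -0.017 and 0.27 and between -0.081 and 0.18 in the last 2. The cause of these shifts was not tested. Probe sets near the background and the 3 arrays per group limit all small differences.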

Other observations

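Oleosins coat the oil bodies in which seed oil is stored, and 4 of their genes were tested. All 4 rose from siliques stage 3 to 5. Their signals at stage 3 were 18.2 to 23.6 for OLEO3, 2.69 to 17.2 for AT3G01570, 7.25 to 15.4 for AT3G18570 and 2.35 to 10.3 for AT2G25890, below the 40th percentile of the arrays, 24.4 to 25.8. The sizes of the rises therefore depend on the offset, and over the alternatives they ranged from 6.10 to 7.58 (log2) for OLEO3, 6.43 to 8.61 for AT3G01570, 3.01 to 4.77 for AT3G18570 and 1.52 to 3.71 for AT2G25890. From seeds stage 6 to 10 OLEO3 fell by 1.73 ± 0.07 (log2, SE), AT2G25890 rose by 3.65 ± 0.13 and AT3G18570 by 1.71 ± 0.12. AT3G01570 stood at 0.99 ± 0.19 and was not called, with signals of 5109 ± 239 (SD, n = 3) in seeds stage 6 and 10174 ± 1076 in seeds stage 10, and it stood at -0.21 after quantile normalization.

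AIM1, a multifunctional enzyme of fatty acid beta-oxidation, had signals of 422 ± 23.6 in seeds stage 6 and 810 ± 53.9 in seeds stage 10, a change of 0.93 ± 0.08 (log2, SE; limma, adjusted p = 4.2e-11) that was not called. With arrays centred on the 75th percentile it stood at 1.04 and was called. AT3G46170, a relative of the ketoacyl reductase among the short-chain dehydrogenases, was not tested, with signals of 0.20 to 0.91 on the 24 arrays.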
